A study of Mus musculus with 4 samples.

Results

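Long non-coding RNAs (lncRNAs) that stay in the nucleus were described across 4 single-nucleus RNA-seq libraries of the arcuate nucleus (ARC), a center of metabolic control in the mouse hypothalamus. They were chosen by gene name alone: Malat1, Neat1, Meg3, Mirg, Rian, Snhg11, Snhg14, Miat and Rmst. Of these 9 names, 7 had a row among the 31053 genes of the count tables. Rian and Snhg14 had none under their symbol or Ensembl identifier and were not analysed here. Each library held nuclei pooled from 2 wildtype male C57BL/6J mice, 10 weeks old at collection. The groups were DOCA-salt (3 weeks with a deoxycorticosterone acetate pellet under the skin and a salt drink, a model of hypertension with low renin) and Sham (sham surgery only), and each group has a library 1 and a library 2. Where 4 values are given, those of DOCA-salt come first (library 1, then 2) and those of Sham follow in the same way, and tests between treatments rest on 2 pooled libraries a group or, where noted, fewer. Their p-values measure only the spread between these pools. It is otherwise where a treatment difference in a class was set against that in neurons. There the library was a block, and the p-values rest on the spread of class sums within libraries, taken over all classes.

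Nuclear lncRNAs work without being translated, as scaffolds of nuclear bodies, as binding partners of splicing and transcription factors, or as host transcripts of small RNAs. Malat1 is found in nuclear speckles, the bodies where splicing factors gather, and Neat1 is the scaffold of paraspeckles. Meg3 and Mirg belong to the imprinted Dlk1-Dio3 region and are expressed from the maternal chromosome. Only nuclei were sequenced, so the split of these RNAs between nucleus and cytoplasm was not measured here.

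The kit primes on runs of A, and the files count molecules (UMIs, unique molecular identifiers) per gene, so the 3′ ends of the annotated transcripts are shown first. In GENCODE M21 (GRCm38), Malat1 lies at chr19:5795690-5802672 and Neat1 at chr19:5824708-5845478, both on the minus strand and 22035 bases apart. The mature end of Malat1 and that of the long Neat1 transcript are not made by the usual polyadenylation but by cleavage after an A-rich tract in the gene itself. The last 10 bases of the long Neat1 transcript (AAAAGCAAAA, in capitals) are also in Malat1, and in 0.767% of 14985 annotated lncRNA transcripts, searched on the transcript strand. The longest Snhg11 transcript holds them too, with another 945 bases after them. The short Neat1 transcript ends after a polyadenylation signal (AATAAA, in capitals), as do Meg3 and Snhg11. AATAAA or ATTAAA is in the last 60 bases of 41.2% of lncRNA transcripts.
Malat1 around its tract, chr19:5795962-5796021: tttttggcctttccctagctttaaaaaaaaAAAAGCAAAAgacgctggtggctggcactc
Neat1, long transcript, last 40 bases, chr19:5824708-5824747: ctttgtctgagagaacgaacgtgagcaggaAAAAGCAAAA
Neat1, short transcript, last 60 bases, chr19:5842307-5842366: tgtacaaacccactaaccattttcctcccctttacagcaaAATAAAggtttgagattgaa
Meg3, longest transcript, last 60 bases, plus strand, chr12:109571667-109571726: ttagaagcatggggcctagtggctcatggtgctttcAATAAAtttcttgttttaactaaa
Snhg11, longest transcript, last 60 bases, plus strand, chr2:158386086-158386145: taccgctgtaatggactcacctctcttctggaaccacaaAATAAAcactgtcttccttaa

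In the annotated Malat1 transcript, of 6983 bases in 1 exon, another 292 bases follow the tract, with an AATAAA in the last 60. No signal was found in the last 60 bases of the long Neat1 transcript, which has 20771 bases against 3004 in the short one. The tables sum both Neat1 transcripts, so their levels cannot be told apart. The longest run of A was 12 bases in Malat1, at the tract, and 16 in Meg3, which lay 14113 bases before its end. A run of at least 10 is in 7.35% of lncRNA transcripts.

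Miat (chr5:112213228-112229395, minus strand), a neuronal lncRNA of its own nuclear domain, carries copies of TACTAAC, the branch point sequence read by the splicing factor Sf1. The longest Miat transcript held 6 of them on the transcript strand, while 3.02% of lncRNA transcripts hold any and 0.0200% hold at least 5. The 138 bases with the densest copies (in capitals) are shown.
Miat, chr5:112217316-112217453: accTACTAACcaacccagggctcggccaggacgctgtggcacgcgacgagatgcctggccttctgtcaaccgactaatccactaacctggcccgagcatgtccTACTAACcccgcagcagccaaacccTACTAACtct

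Mirg (chr12:109729764-109749460) starts 158037 bases downstream of Meg3 (chr12:109541001-109571726) on the plus strand, and 14 annotated miRNA hairpins lie inside it, against 1 in Meg3. Rmst (chr10:92071037-92165170, minus strand), a partner of Sox2 in neurogenesis, holds 2. Snhg11 (chr2:158375638-158386145, plus strand), a small nucleolar RNA host gene, is annotated as protein coding in this release, so the label of a non-coding RNA is not the annotation's.

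The libraries differed in size and depth. Kept nuclei were 10307, 18907, 2203 and 7759, with a median of 2401, 2534, 8215 and 3278 UMIs. Mitochondrial UMIs were 5.05% to 6.22% of the total, and between 1 and 44 barcodes were shared by any pair of libraries. DOCA-salt 2 and Sham 1 stand apart from the rest in what follows, the first by its low Malat1 and Meg3 and the second by its depth. Some of the results that rest on them are also given without them. Nuclei with marker RNA of neighbouring regions were more frequent in the DOCA-salt libraries, at 324, 871, 26 and 11 of the kept nuclei. They had at least 3 UMIs of Pmch, Hcrt, Ppp1r1b or Adora2a at 5 times the library's mean. No neuron gate was applied, so nuclei other than neurons can be among them.

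Nuclei were put into classes by marker genes, none of which is one of the 7 lncRNAs. A glial or vascular class needed at least 3 of its markers at 2000 CPM in sum (CPM, the UMIs of a gene per 1000000 UMIs), 2 times any other such class, and less neuronal marker RNA than the average of all nuclei. Neurons were 42.5% to 58.0% of kept nuclei in the 4 libraries, astrocytes 4.78% to 5.93%, oligodendrocytes 1.74% to 6.02%, and 28.6% to 47.0% stayed outside all classes. Oligodendrocyte precursors, microglia and endothelial nuclei numbered 20 to 211 a library. Tanycytes, the radial glia of the third ventricle, reached 10 nuclei only in DOCA-salt 1 (61) and Sham 2 (31), and mural cells only in DOCA-salt 2 (15) and Sham 2 (10). Ependymal cells reached it only in DOCA-salt 2 (13 nuclei) and entered no test of a class against neurons. The class markers were highest in their own class in every library, over classes of at least 10 nuclei. As the gate used the same markers, this was largely set in advance and does not check the classes. For example, 10 oligodendrocyte markers (Mog, Mag, Mobp and others) had 4620 to 6799 CPM in oligodendrocytes against 78.3 to 333 CPM in neurons.

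The 7 lncRNAs together took 5.98%, 3.33%, 5.18% and 5.43% of all UMIs. Their share was 7.84%, 4.08%, 6.41% and 6.12% in oligodendrocytes, 7.71% and 7.67% in tanycytes of DOCA-salt 1 and Sham 2, and lowest of the classes in microglia (4.73%, 2.88%, 3.11% and 4.10%). In each class with 10 nuclei in all libraries it was lowest in DOCA-salt 2. CPM is a share of UMIs, so these levels are relative to all other RNA of the same nuclei.

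Malat1 was the member with a broad distribution. In neurons it had 40004, 18170, 29483 and 31992 CPM, in astrocytes 66410, 39881, 59440 and 53552, and in oligodendrocytes 69786, 33061, 54765 and 51259. Within every library, astrocytes and oligodendrocytes were above neurons, while microglia (35956, 20830, 25188 and 31053 CPM) were on both sides of them. In the fit with the library as a block, edgeR's quasi-likelihood test with Benjamini-Hochberg adjustment put Malat1 1.03 log2 units above neurons in astrocytes (SE 0.094, adjusted p = 9.02e-14), 1.03 in tanycytes, 0.99 in oligodendrocytes, 0.70 in oligodendrocyte precursors, 0.59 in endothelial nuclei and 0.52 in mural cells (adjusted p = 0.0039). In microglia the difference was -0.02 (SE 0.094, adjusted p = 0.938), so the test found no difference there.

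These counts stand against a broad background, since the classes differ in many genes. Of the 10273 genes tested, 41.6% were called in either direction in astrocytes (20.7% higher, 20.9% lower) and 41.1% in oligodendrocytes (20.8% higher, 20.3% lower). The share was 25.1% in oligodendrocyte precursors (12.5% higher, 12.6% lower), 18.4% in microglia (10.6% higher, 7.84% lower) and 32.7% in endothelial nuclei (18.3% higher, 14.4% lower). It was 28.7% in tanycytes (14.9% higher, 13.8% lower) and 4.61% in mural cells (2.29% higher, 2.33% lower). The 7 lncRNAs gave 6, 7, 6, 6, 7, 6 and 3 calls in the same order, 41 of 49, of which 12 were higher and 29 lower than in neurons. The median of all genes was within 0.05 of 0 in each class but the mural cells, where it was -0.53, which shifts every mural value. The place of mural cells among the classes is therefore not read from the fits. As a share of the neuronal CPM in DOCA-salt 2 and Sham 2, mural Malat1 was 198% and 186%, beside 219% and 167% in astrocytes. Mural Meg3 was 38.4% and 38.7%, beside 48.5% and 45.8%, and mural Snhg11 39.7% and 37.8%, beside 53.6% and 46.4%.

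Neat1 had the largest difference between classes. Oligodendrocytes held 1389, 931, 497 and 810 CPM, and neurons 20.2, 29.4, 31.0 and 27.2 CPM. The lowest oligodendrocyte value was far above the highest neuronal value. The fitted difference was 5.17 log2 units (SE 0.16, adjusted p = 1.32e-34), and Neat1 ranked 40 by fold among the 10273 genes tested.

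Endothelial nuclei had 363, 205, 203 and 262 CPM of Neat1 (3.25 log2 units above neurons, adjusted p = 5.2e-17). Tanycytes had 235 CPM in DOCA-salt 1 and 292 CPM in Sham 2 (3.15, adjusted p = 4.17e-11), and astrocytes 217, 130, 97.8 and 90.7 CPM (2.37, adjusted p = 5.38e-18). Endothelial and tanycyte values overlapped, and both were above those of astrocytes in the same library. Microglia followed with 80.5, 73.8, 110 and 65.9 CPM (1.53, adjusted p = 0.002), which were between 12 and 19 UMIs a library. That call held in 11 of 14 alternatives and was lost with the gate on thinned counts (0.81, adjusted p = 0.414), at 1000 to 2000 UMIs (1.86, adjusted p = 0.174) and at 4000 to 8000 UMIs (1.28, adjusted p = 0.2). The 13 ependymal nuclei of DOCA-salt 2 held 414 CPM of Neat1 from 16 UMIs, above the 205 CPM of endothelial nuclei in that library and below the 931 CPM of oligodendrocytes.

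Oligodendrocyte precursors did not have the Neat1 level of oligodendrocytes. They held 28.4, 26.3, 69.0 and 46.7 CPM from 8 to 13 UMIs a library, which overlapped neurons (0.39 log2 units, SE 0.42, adjusted p = 0.567). In mural cells 3 UMIs were counted in each of the libraries with enough nuclei. These were 406% (DOCA-salt 2) and 452% (Sham 2) of the neuronal level. The fitted difference of 1.82 log2 units was not called (adjusted p = 0.441 by edgeR's quasi-likelihood test). DESeq2 put it at 2.18 and called it (adjusted p = 0.0428). With 3 UMIs a library the mural level stays unsettled. After every nucleus was thinned to 1000 UMIs, 61.7%, 50.3%, 39.2% and 55.5% of 94, 453, 102 and 404 oligodendrocytes had a Neat1 UMI, against 1.43%, 2.02%, 2.59% and 2.13% of neurons at the same depth. Without thinning the shares were 75.4%, 70.6%, 79.4% and 70.4% in oligodendrocytes and 6.28% to 23.0% in neurons. Nuclei of fewer UMIs were left out of the thinned shares, 85, 394, 0 and 63 of them oligodendrocytes.

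**Figure D1:**
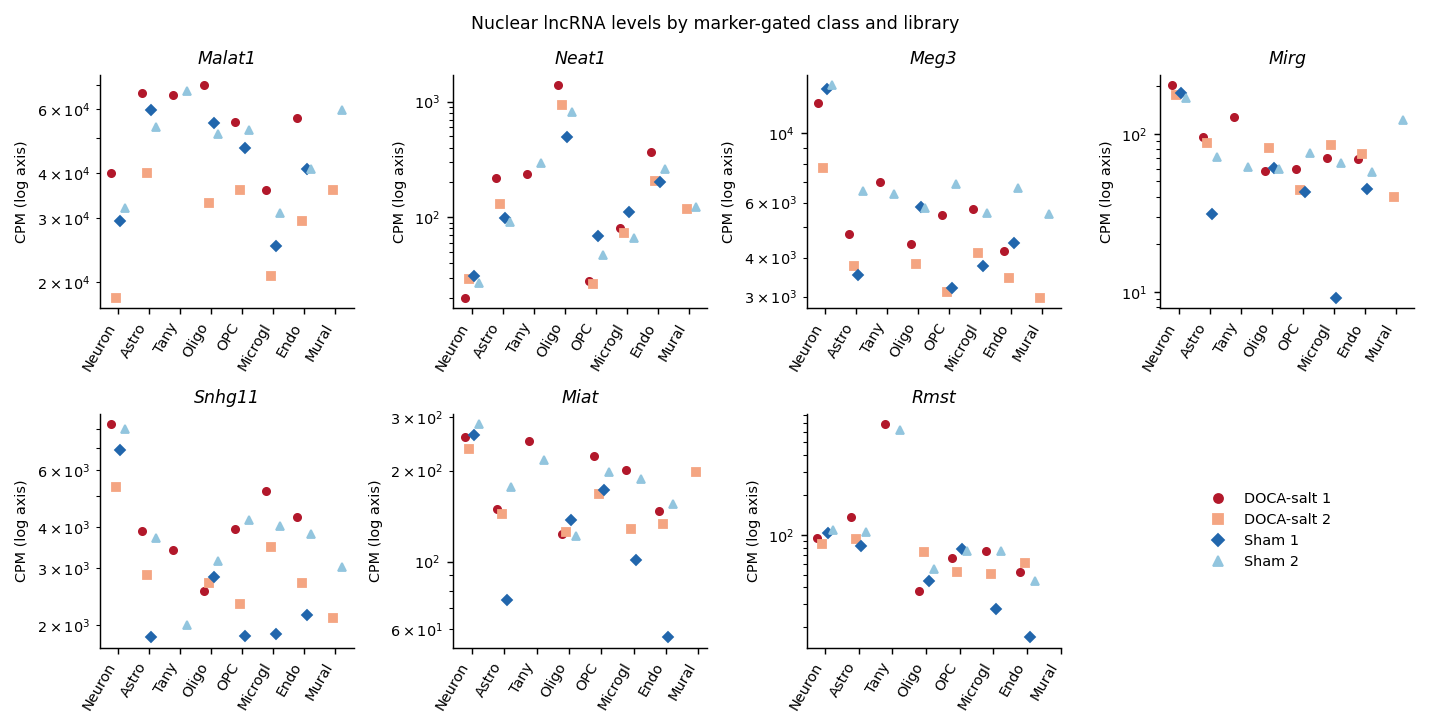
Level of each lncRNA (CPM, log axis) in each marker-gated class, with 1 point per library that had at least 10 nuclei of the class, ependymal cells left out (Tany, tanycytes, OPC, oligodendrocyte precursors). Neat1 is highest in oligodendrocytes in all 4 libraries, Rmst is highest in tanycytes, and Meg3, Snhg11 and Mirg are highest in neurons. Values of 0 (Miat in mural cells of Sham 2, Rmst in mural cells) cannot be drawn on a log axis and are left out.

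Meg3, a maternally expressed RNA of the imprinted region, was highest in neurons, at 12522, 7748, 13913 and 14277 CPM. In astrocytes it had 4762, 3757, 3508 and 6533 CPM, and in oligodendrocytes 4423, 3824, 5813 and 5757 CPM. No glial value of a library reached the neuronal value of any library. Meg3 was lower than in neurons in all 7 classes, from -0.996 log2 units in tanycytes (adjusted p = 9.15e-07) to -1.89 in mural cells (adjusted p = 5.46e-10). The mural value holds the shift of -0.53 in the median of all genes.

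Snhg11 was also highest in neurons, with 8278, 5305, 6920 and 8005 CPM in neurons, 3901, 2845, 1840 and 3715 in astrocytes and 2541, 2689, 2820 and 3152 in oligodendrocytes. All 7 classes were called lower, from -0.97 in microglia (adjusted p = 3.7e-08) to -1.87 in mural cells, a value that holds the same shift. Mirg, the miRNA host downstream of Meg3, had 204, 177, 181 and 169 CPM in neurons and 31.2 to 95.2 CPM in astrocytes. It was called lower in 6 classes, from -0.85 in tanycytes to -1.73 in oligodendrocyte precursors (adjusted p = 5.41e-10), and in mural cells 4 UMIs gave -1.54 (adjusted p = 0.241).

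Miat differed less. It had 258, 236, 262 and 284 CPM in neurons, and in oligodendrocytes 123, 125, 137 and 121 CPM, all below the neuronal values. It was called lower in astrocytes (-0.78), oligodendrocytes (-0.86, adjusted p = 1.61e-08), microglia (-0.69), endothelial nuclei (-0.95) and oligodendrocyte precursors (-0.46, adjusted p = 0.0138), the last in only 6 of 14 alternative analyses. In tanycytes the difference was -0.18 (adjusted p = 0.565).

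Rmst was set apart by tanycytes, which held 681 CPM in DOCA-salt 1 and 621 CPM in Sham 2 (191 and 100 UMIs). Neurons held 93.9, 84.9, 104 and 109 CPM, and astrocytes 137, 92.8, 82.9 and 105 CPM, which overlapped. Tanycytes were 2.73 log2 units above neurons (SE 0.16, adjusted p = 1.42e-20), and astrocytes 0.21 (adjusted p = 0.136). Without Sham 1 the astrocyte value was 0.29 and was called (adjusted p = 0.0336 by edgeR's quasi-likelihood test). At 1000 UMIs a nucleus, 52.8% of 53 and 59.3% of 27 tanycytes had an Rmst UMI, against 8.89% and 8.93% of neurons of the same libraries (77.0% and 80.6% of tanycytes without thinning, and 23.4% and 33.2% of neurons).

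Rmst was lower than in neurons in oligodendrocytes (-0.56, adjusted p = 7.05e-04) and endothelial nuclei (-0.91, adjusted p = 0.0018). In precursors (-0.59) and microglia (-0.66, adjusted p = 0.0457) the calls held in 7 and 3 of 13 alternatives, and among precursors of 4000 to 8000 UMIs the value was 0.021. No Rmst UMI was found in the mural cells of DOCA-salt 2 and Sham 2, where 3 UMIs would be 119 and 123 CPM, above the neuronal level, so that no difference could be seen at this depth.

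**Figure D2:**
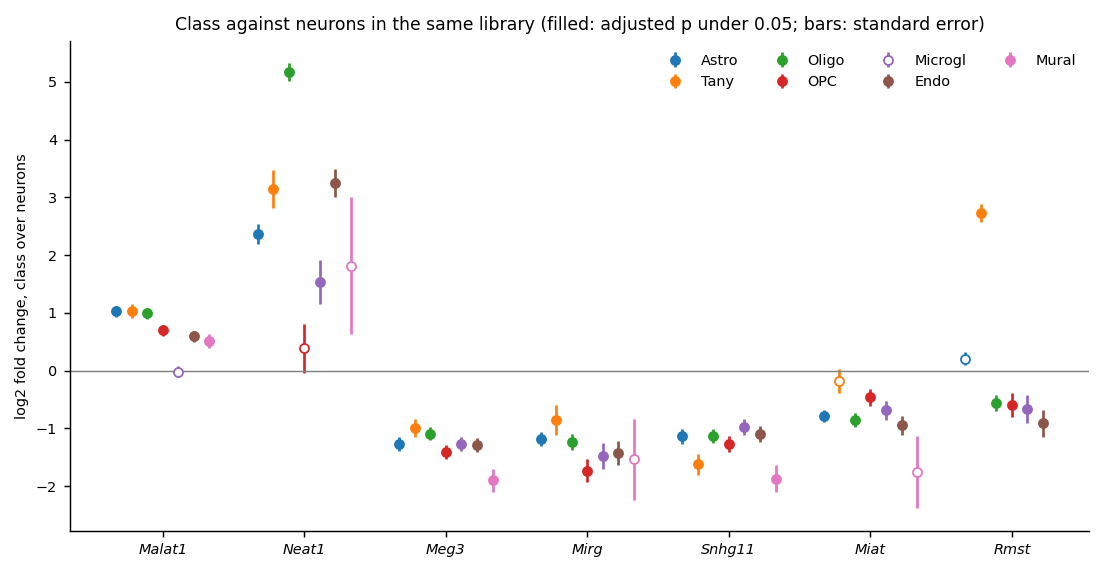
Log2 fold change of each lncRNA in 7 classes over neurons of the same library, with standard errors as bars, filled where the adjusted p was under 0.05. Neat1 spreads from 0.39 in oligodendrocyte precursors to 5.17 in oligodendrocytes, whereas Meg3 and Snhg11 are below 0 in each class. Mural values are shifted, as the median of all genes was -0.53 there. Rmst in mural cells (0 UMIs) is left out.

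RNA of neurons was found in glial nuclei too. A set of 10 neuronal genes that the gate did not use (Thy1, Syn1, Stmn3 and others) had 57.0% to 68.4% of its neuronal level in astrocytes, 53.0% to 67.1% in oligodendrocytes, 68.9% to 84.6% in microglia and 33.9% to 36.3% in tanycytes. Meg3 had 25.2% to 48.5% of its neuronal level in astrocytes, Snhg11 26.6% to 53.6% and Mirg 17.3% to 49.4%, below the share of these 10 genes in each library. In tanycytes it was the reverse for Meg3, with 55.7% in DOCA-salt 1 and 44.7% in Sham 2 against 36.3% and 33.9% for the 10 genes. The part that free neuronal RNA has in the glial Meg3, Snhg11 and Mirg was not tested. Neat1 in oligodendrocytes, at 1603% to 6872% of its neuronal level, and Rmst in tanycytes, at 725% and 569%, were above the level of the neurons themselves.

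Glial levels moved with the number of UMIs in a nucleus. The gate itself depends on this number. It asked for 3 markers at any depth, so nuclei of few UMIs needed a larger share of marker RNA than deep ones. The part of the gate in the changes below was not tested. In oligodendrocytes with 500 to 1000 UMIs, Neat1 was 2308 CPM in DOCA-salt 1, 1992 in DOCA-salt 2 and 1510 in Sham 2. At 4000 to 8000 UMIs it was 359, 374, 749 and 598 CPM, lower in each of those libraries. Meg3 moved the other way in the same nuclei, from 923, 898 and 1706 CPM in these 3 libraries to 9909, 6198, 3430 and 7386 CPM in the 4.

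Astrocytes had the same pattern for Meg3, at 958, 829 and 2632 CPM with 500 to 1000 UMIs (DOCA-salt 1, DOCA-salt 2 and Sham 2) and 7601, 5383, 3107 and 7526 CPM with 4000 to 8000. Malat1 in astrocytes fell from 92781 and 64349 CPM to 50893 and 30866 in the DOCA-salt libraries, but was 39484 and 51290 CPM in Sham 2. Across single astrocytes of at least 1000 UMIs, the Malat1 share was set against the number of UMIs other than Malat1. Spearman's rho was -0.56, -0.57, -0.45 and -0.28 over 343, 733, 119 and 344 nuclei. As nuclei of a library share its free RNA and its depth, this is a description only.

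The class differences were therefore taken again within ranges of UMIs, an analysis chosen after seeing the data, over the 5 classes with enough nuclei. Neat1 in oligodendrocytes was 6.58 log2 units above neurons at 1000 to 2000 UMIs, 5.29 at 2000 to 4000 and 4.73 at 4000 to 8000. Meg3 in oligodendrocytes was at -2.30, -1.36 and -0.81, and in astrocytes at -2.09, -1.50 and -1.003. Malat1 in astrocytes was at 1.54, 1.12 and 0.87. These 12 values had an adjusted p under 0.05, and their sizes were smaller where nuclei had more UMIs. Over all members, 25, 26 and 22 differences were called in the 3 ranges against 32 over all nuclei of the same 5 classes. In at least 1 range the call was lost for Neat1, Mirg, Miat and Rmst in microglia, for Mirg, Miat and Rmst in endothelial nuclei, and for Rmst in oligodendrocytes. In oligodendrocyte precursors it was lost for Miat, Rmst and Malat1 (0.48 at 4000 to 8000 UMIs, adjusted p = 0.13). Sums of too few nuclei were left out, so the libraries differed between ranges. Sham 1 gave no sum of the 5 classes at 1000 to 2000 UMIs, nor of microglia and precursors at 2000 to 4000. Endothelial nuclei came from the DOCA-salt libraries alone at 2000 to 4000 UMIs, and from DOCA-salt 2 and Sham 1 at 4000 to 8000. Astrocytes and oligodendrocytes had all libraries in both ranges from 2000 UMIs up. The part of the missing libraries, and of the gate's dependence on UMIs, in lost calls and sizes was not tested.

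Neurons were compared in the same way, with 899, 1355, 17 and 547 nuclei at 1000 to 2000 UMIs, so Sham 1 values there rest on few. Malat1 was 37645, 20850, 22941 and 20978 CPM at 1000 to 2000 UMIs and 39716, 18183, 28433 and 33504 CPM at 4000 to 8000, higher in 3 libraries and lower in DOCA-salt 2. Meg3 went from 8804 to 16024 CPM in Sham 2 and by less in the other libraries (12712 to 13034, 7748 to 8162 and 9284 to 10938 CPM). Between these ranges no member was called (31 of 11590 genes, 0.267%), and Miat came nearest at 0.40 log2 units (SE 0.13, adjusted p = 0.304). Below 1000 UMIs the neuronal levels of Malat1 (27526, 11070 and 16848 CPM) and Meg3 (7483, 2896 and 4429 CPM) were lower in the 3 libraries with at least 10 such nuclei.

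Across single neurons of at least 1000 UMIs, not thinned, the Malat1 and Meg3 shares rose together. Spearman's rho was 0.52, 0.41, 0.67 and 0.64 over 3789, 7564, 1272 and 3247 nuclei. The Meg3 and mitochondrial shares were taken over the UMIs left without Malat1. In astrocytes rho was -0.41, -0.40, -0.01 and -0.20. Malat1 was also lower where the mitochondrial share was higher, with rho of -0.26, -0.21, -0.51 and -0.53 in neurons. These are descriptions of nuclei that share a library.

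**Figure D3:**
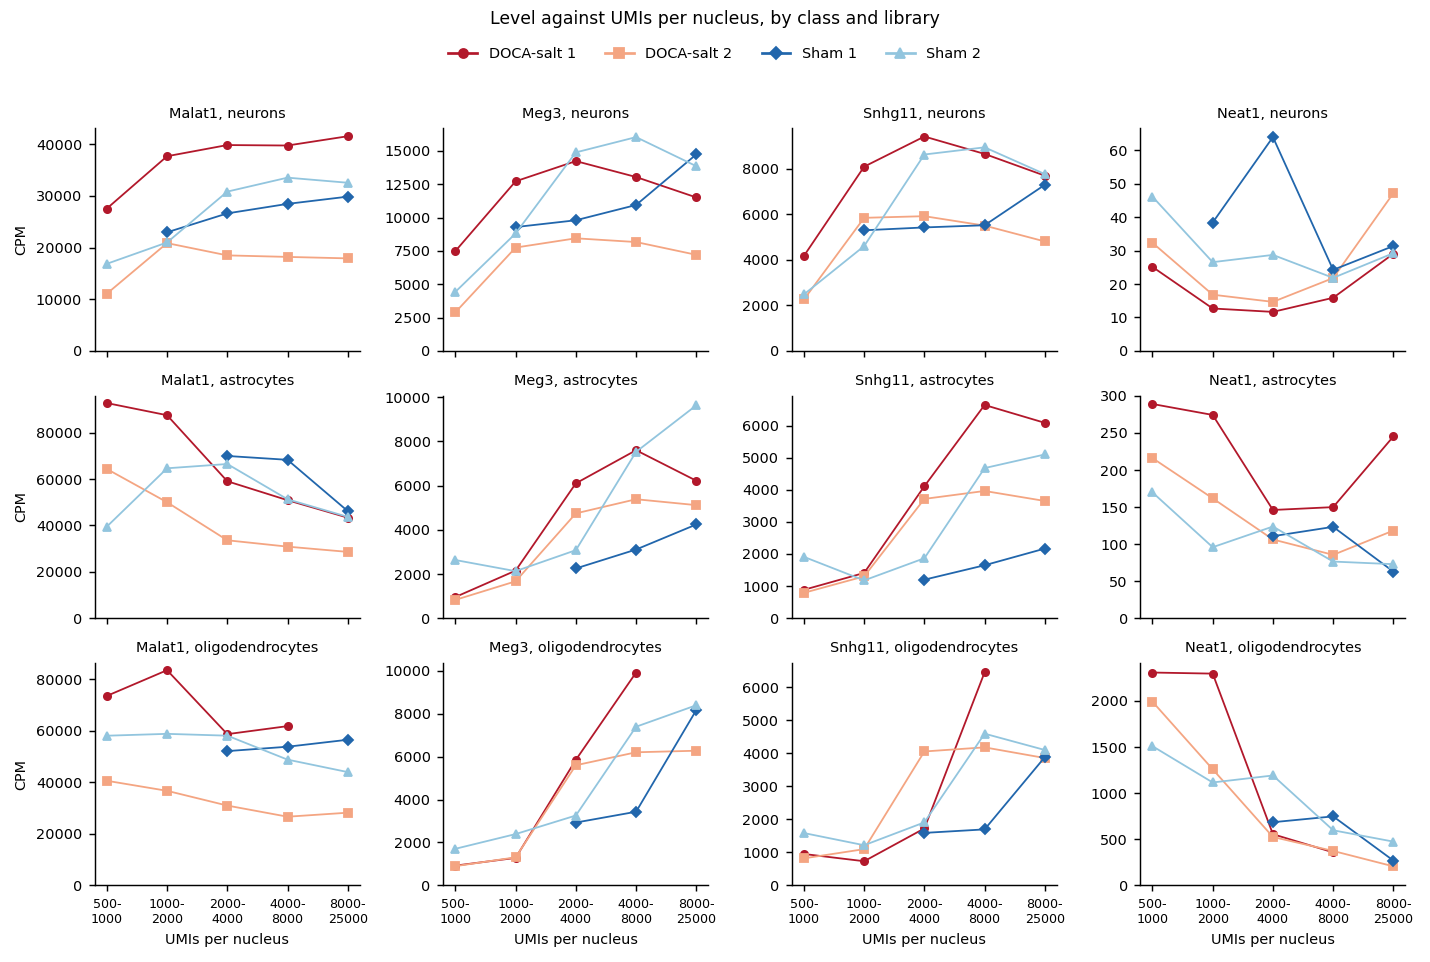
Level (CPM) of Malat1, Meg3, Snhg11 and Neat1 against UMIs per nucleus in 5 ranges, for neurons, astrocytes and oligodendrocytes, with 1 line per library (ranges with fewer than 10 nuclei are left out). Meg3 and Snhg11 are low in glial nuclei of few UMIs, and oligodendrocyte Neat1 is highest there, for example 2308 CPM in DOCA-salt 1 at 500 to 1000 UMIs and 359 CPM at 4000 to 8000.

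Among neurons, GABAergic nuclei (Slc32a1, Gad1, Gad2) were set against glutamatergic ones (Slc17a6, Slc17a7, Slc17a8) of the same library. Neat1 was 21.3, 29.7, 33.3 and 26.8 CPM in GABAergic and 11.97, 21.5, 22.8 and 22.3 CPM in glutamatergic neurons, higher in the former in each library. The fitted difference was 0.48 log2 units (SE 0.12, adjusted p = 0.0404 by edgeR's quasi-likelihood test), while 7.8% of 13110 genes were called. It was past the threshold in only 2 of 7 alternative analyses, and leaving out any 1 of the 4 libraries ended the call (0.39, 0.50, 0.46 and 0.60 log2 units without DOCA-salt 1, DOCA-salt 2, Sham 1 and Sham 2). Rmst (-0.48, adjusted p = 0.0882) and Miat (-0.28, adjusted p = 0.0816) missed the threshold, and Malat1 (44218, 18394, 30280 and 32712 against 32392, 17932, 30275 and 31973 CPM) differed by 0.12.

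Treatment was first compared over whole libraries, where a change in the make-up of the tissue and a change per nucleus cannot be told apart. Malat1 had 39855 and 20961 CPM in DOCA-salt and 33028 and 34712 CPM in Sham. Meg3 had 10992 and 6944 CPM against 12216 and 12069 CPM. DOCA-salt values of Meg3 were below both Sham values, whereas those of Malat1 lay on both sides of them.

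Snhg11 had 8290 and 4860 CPM in DOCA-salt against 6040 and 6913 in Sham, Miat 274 and 218 against 235 and 253, and Rmst 117 and 91.0 against 98.0 and 106. Neat1 had 59.1 and 84.6 CPM against 72.7 and 84.0, and Mirg 187 and 160 against 153 and 146. Of these, Mirg was the only member whose groups did not overlap. The share of all genes without such overlap was not counted. A lack of overlap is therefore given here and below as a description only. No member was called, nor any of 16564 genes (0% called by edgeR's quasi-likelihood test, 1399 genes at an unadjusted p under 0.05, 109 genes by DESeq2). The lowest adjusted p among the members was 0.661, for Meg3 at -0.49 log2 units (SE 0.28).

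DOCA-salt 2 weighed heavily on these values. It had the largest mitochondrial share of UMIs (6.22%, beside 5.05%, 5.39% and 5.85% in DOCA-salt 1, Sham 1 and Sham 2). The share of ribosomal protein genes was also largest there (5.23%, beside 4.07%, 4.29% and 4.04%). Whether these shares bear on the lncRNA levels was not tested. Malat1 of DOCA-salt 2 was the lowest of the 4 libraries in neurons and in each of the 5 other classes found in all of them. Without DOCA-salt 1, so that DOCA-salt 2 alone stood for the treatment and was assumed to vary like the Sham pair, Meg3 was called at -0.81 log2 units (adjusted p = 0.039) and Malat1 at -0.70 (adjusted p = 0.0462). Without DOCA-salt 2 neither was called.

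Within classes, 0 of 42 tests of members were called. A class can differ in make-up too. In neurons the 6 markers of neighbouring regions had a median of 4.49 log2 units between treatments, with 0 called. Make-up and change per nucleus are thus not fully told apart there either. The share of all genes called was 0.0272% in astrocytes, 0.0476% in oligodendrocytes, 0.0143% in oligodendrocyte precursors, 0.0195% in microglia, 0.0399% in endothelial nuclei and 0% in neurons (15307 genes). In neurons the values were -0.51 for Meg3 (SE 0.30, adjusted p = 0.643), -0.12 for Malat1 and -0.17 for Snhg11. The nearest to a call was Neat1 in astrocytes (0.82 log2 units, SE 0.26, adjusted p = 0.426). It had 217 and 130 CPM in DOCA-salt and 97.8 and 90.7 CPM in Sham, groups that did not overlap. However, these astrocytes had a median of 1284, 1228, 5054 and 2644 UMIs. With astrocytes thinned to the same number of UMIs, and shallower ones left out, the groups overlapped. Neat1 was then 242 and 121 CPM in DOCA-salt and 168 and 98.8 CPM in Sham. Without DOCA-salt 2 the fitted difference of astrocyte Neat1 was 1.16. Without DOCA-salt 1 the values were -0.85 for Meg3 and -0.75 for Malat1 in neurons, and -0.72 for Malat1 in oligodendrocytes. Each of these fits left a single DOCA-salt library.

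Neurons of like depth gave no call of a member either, in any of 4 ranges of UMIs (0.156%, 0.065%, 0.00753% and 0% of all genes called from 1000, 2000, 4000 and 8000 UMIs up). At 2000 to 4000 UMIs, Neat1 in neurons was 11.7 and 14.7 CPM in DOCA-salt and 63.9 and 28.7 CPM in Sham, groups that did not overlap (-1.66 log2 units, SE 0.41, adjusted p = 0.569). The highest value was that of Sham 1, from 114 nuclei, and without DOCA-salt 2 Neat1 was called here (-1.78, adjusted p = 0.0026). At 8000 UMIs and more the DOCA-salt values were 29.0 and 47.2 CPM and those of Sham 31.4 and 29.2, which overlapped. In that range, without DOCA-salt 1, Meg3 (-0.997), Malat1 (-0.81) and Snhg11 (-0.66) were called lower and Neat1 (0.63) higher, with the same single DOCA-salt library behind all 4.

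The treatment difference of Neat1 in oligodendrocytes was set against that in neurons in 1 fit. The library was a block in it, so the p-values do not measure the spread between pools. They rest on class sums that share the same 4 libraries. Oligodendrocyte Neat1 was 1389 and 931 CPM in DOCA-salt against 497 and 810 in Sham, with no overlap, while neuronal Neat1 overlapped. The interaction was 0.97 log2 units (SE 0.23, adjusted p = 0.0464), and 24 of 10273 genes (0.234%) were called, all higher. It was the only one of 35 interactions of members that was called. In astrocytes 0.00973% of genes were called, all lower, and in the other classes 0%. Neat1 was at 1.04 in astrocytes (SE 0.27, adjusted p = 0.272) and at -0.72 in oligodendrocyte precursors, where it was not called.

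The value moved with the UMIs per nucleus. Oligodendrocytes had a median of 1056, 1029, 5886 and 1982 UMIs, so the library with the lowest Neat1, Sham 1, was also the one with the deepest nuclei. The interaction was 0.25 at 2000 to 4000 UMIs (adjusted p = 0.882) and -0.68 at 4000 to 8000 (adjusted p = 0.619), where its direction was reversed. At 1000 to 2000 UMIs it was 1.38 (adjusted p = 0.498), but Sham 1 had only 5 such oligodendrocytes and was left out, so Sham 2 alone stood for Sham and the lost call says nothing about the difference.

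Single libraries moved it too. Without DOCA-salt 1 it was 0.48 and without Sham 1 it was 0.52 (adjusted p = 1 for both), without Sham 2 it was 1.49 (adjusted p = 0.0651), and without DOCA-salt 2 it was 1.63 (adjusted p = 5.5e-07). At 4000 to 8000 UMIs, oligodendrocytes of DOCA-salt had 359 and 374 CPM of Neat1 and those of Sham 749 and 598, the reverse order of the pooled values.

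Within UMI ranges other interactions with neurons passed the threshold, in the positive direction. At 2000 to 4000 UMIs these were Meg3 in astrocytes (1.11, adjusted p = 0.0081) and oligodendrocytes (1.03, adjusted p = 0.0155), and Mirg and Snhg11 in astrocytes (2.70 and 1.17). Meg3 in microglia was also past it (1.90, adjusted p = 3.3e-04), but there Sham 1 had 4 nuclei and was left out, so the Sham value was that of 11 nuclei of Sham 2. At 4000 to 8000 UMIs Rmst in oligodendrocytes was called (1.80, adjusted p = 0.0224), with 11 to 62 nuclei a library. Astrocyte Meg3 at 2000 to 4000 UMIs was 6101 and 4742 CPM in DOCA-salt and 2251 and 3078 CPM in Sham, with 17 nuclei in Sham 1. With the filter on low counts, none of the 6 was called in another range or over all nuclei. Without that filter, Meg3 in microglia was called over all nuclei (0.59, adjusted p = 0.0233 by edgeR's quasi-likelihood test).

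The ratio of members within a library does not depend on the total, but can depend on the kinds of nuclei counted. UMIs of Meg3 per UMI of Snhg11, a ratio chosen after seeing the values among 4 computed, were 1.33 and 1.43 in DOCA-salt and 2.02 and 1.75 in Sham over all nuclei, and 1.51 and 1.46 against 2.01 and 1.78 in neurons. In astrocytes it was 1.22 and 1.32 against 1.91 and 1.76, and in oligodendrocytes 1.74 and 1.42 against 2.06 and 1.83. Both DOCA-salt ratios were below both Sham ratios in all nuclei and in each of 6 classes, which share the free RNA of their library and are not replicates. The exact two-sided permutation p is 0.333, the smallest that 2 libraries against 2 can give.

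**Figure D4:**
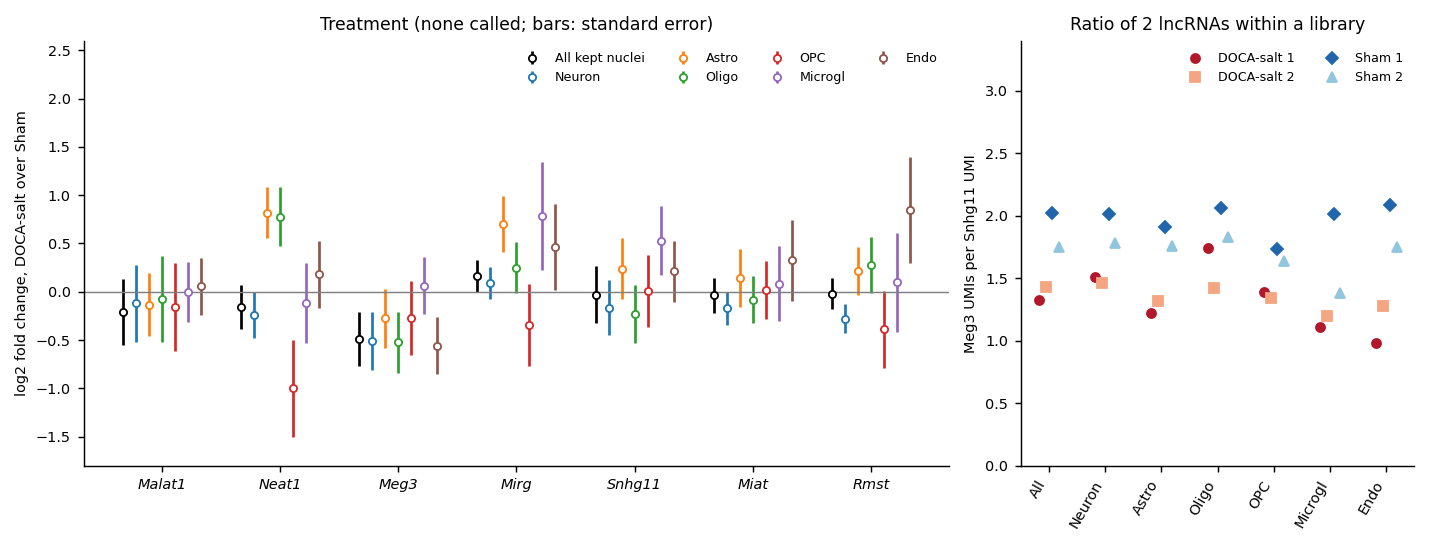
Left, log2 fold change of each lncRNA in DOCA-salt over Sham in all kept nuclei and in 6 classes, with standard errors as bars, none with an adjusted p under 0.05. Right, Meg3 UMIs per Snhg11 UMI in each library, from 0.978 in endothelial nuclei of DOCA-salt 1 to 2.08 in those of Sham 1, with both DOCA-salt points below both Sham points in each column.

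Genes for proteins of the bodies that hold these lncRNAs were looked at beside them. Only the RNA of these genes was counted, and no protein was measured. Of 16 genes of nuclear speckle proteins, 6 were called higher than in neurons in astrocytes, 3 in oligodendrocytes and 5 in precursors. In microglia 4 were called higher and in tanycytes 8, with 0 lower in any of these classes. In endothelial nuclei 1 was higher and 1 lower. Son, a core speckle protein, was the furthest from neurons in astrocytes (1.43 log2 units) and tanycytes (1.29), and 0.55 higher in oligodendrocytes. The list's median was 0.15 in astrocytes and 0.02 in oligodendrocytes, beside -0.03 and -0.01 over all genes. As given above, 20.7%, 20.8%, 12.5%, 10.6%, 14.9% and 18.3% of all genes were called higher in astrocytes, oligodendrocytes, precursors, microglia, tanycytes and endothelial nuclei, and 3 of 16 in oligodendrocytes is below such a share.

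Of 16 genes of paraspeckle proteins, 2 were called higher and 1 lower in oligodendrocytes, where Neat1 was highest. Fam98a (0.49) and Rbm14 (0.44) were higher and Matr3, a nuclear matrix protein, lower (-0.25), with a list median of -0.02. Matr3 was lower in astrocytes as well (-0.35, adjusted p = 3.1e-05), where 3 of the 16 were called lower and 0 higher. Beside the 20.8% of all genes called higher in oligodendrocytes and the 20.9% called lower in astrocytes, these counts are near or below the background.

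Imprinted neighbours of Meg3, Mirg and Snhg14 were looked at in the same way, and 7 of the 12 in the list could be tested. Of these, 6 were called lower in astrocytes, 5 in oligodendrocytes, 6 in precursors, and 3 each in microglia, endothelial nuclei, tanycytes and mural cells, with 0 higher. The share of all genes called lower was 20.9%, 20.3%, 12.6%, 7.84%, 14.4%, 13.8% and 2.33% in the same classes. Magel2 and Ndn, of the Prader-Willi region, were at -0.58 and -0.48 in astrocytes, and Dlk1, a paternally expressed growth regulator, at -0.62 in oligodendrocytes. The medians of the 7 were -0.38 in astrocytes and -0.47 in oligodendrocytes, beside -0.03 and -0.01 over all genes.

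Other lncRNAs went in both directions. Of 15 tested, 5 were higher and 6 lower in astrocytes and 3 higher and 6 lower in oligodendrocytes, where 20.7% and 20.9%, and 20.8% and 20.3%, of all genes were called. Mir9-3hg, a host of miR-9, was 2.39 log2 units higher in astrocytes, and Dlx6os1, of the Dlx locus of GABAergic neurons, 1.12 lower. In the treatment comparisons within classes Bc1, a neuronal cytoplasmic RNA, was the only gene of the 5 lists that was called, lower by 3.18 to 3.55 log2 units in 5 glial and vascular classes. In neurons Bc1 was called at matched UMIs (-3.47, -3.60 and -3.55 log2 units from 1000, 2000 and 4000 UMIs up). To tests at 1000 to 2000 UMIs, Sham 1 gave only 17 neurons. Markers of neighbouring regions (Pmch, Hcrt, Drd1 and others) had a median of 3.35 in whole libraries, with 0 of 6 called, while Pmch was called higher in DOCA-salt neurons of 1000 to 2000 UMIs (3.32, adjusted p = 1.7e-07) and Hcrt in the interaction of oligodendrocytes with neurons (2.55, adjusted p = 0.0066). In these comparisons no paraspeckle, speckle or imprinted gene was called for treatment.

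The genes whose levels followed each member most closely were sought over 29 sums of a class in a library (Pearson's r of log2 CPM, 8661 genes), as a description, since sums of a library share its depth. Malat1 was followed by Klf9 (0.77), Son (0.76) and Pik3ip1 (0.74), and Neat1 by Csrp1 (0.87), Carhsp1 (0.86) and Pla2g16 (0.83). For Meg3 the nearest were Snhg11 (0.86), Aak1 (0.80) and Pclo (0.80), for Snhg11 they were Meg3, Akap11 (0.79) and Rnf112 (0.79), and for Mirg Selenoi (0.90), Abhd18 (0.89) and Atl1 (0.89). Rmst was nearest to Col25a1 (0.93), Nkx2-1 (0.92), a transcription factor of the ventral hypothalamus, and Rfx3 (0.90), and Miat to Ergic3, Ube4a and Amn1 (0.96 each). The lists changed in part without the mural sums. Then Rmst was nearest to Six3 (0.86) and Miat to Kcnq1ot1 (0.79), and none of their 3 genes stayed. Snhg11 was nearest to Trank1 (0.88) ahead of Meg3 (0.85), and Malat1 to Pik3ip1 and Zfp24 (0.82 each), with Son no longer among the 3. Snhg11 stayed the nearest to Meg3, Csrp1 to Neat1 and Selenoi to Mirg.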

How the data were processed

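Nuclei from ARC punches were sequenced with the Chromium 3′ kit v3. The authors aligned reads to mm10 with Cell Ranger 3.0.1 and deposited, per library, a filtered matrix of UMI counts, not normalized, for 31053 genes. The 9 names, gene lists and classes were chosen with earlier results of these data known. Nuclei with over 200 and under 7000 genes, under 25000 UMIs and under 15% mitochondrial UMIs were kept. Counts were summed per library, class and UMI range, for sums of at least 10 nuclei, since nuclei are not replicates. Sums were tested with edgeR 4.0.16 (quasi-likelihood test, TMM scaling, filter on low counts, Benjamini-Hochberg adjustment over all genes tested, threshold 0.05, R 4.3.3), with the library as a block for contrasts within libraries. DESeq2 1.42.0 was an alternative. A neuron needed 4000 CPM of neuronal markers from at least 3 of them, and under 1000 CPM of glial markers or at most 1 such UMI. Glial and vascular classes were capped at 4855 CPM of neuronal markers, the mean of the libraries. Likeness used log2(CPM + 1) over genes with a mean of at least 20 CPM.

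Named genes were the members, the gate markers, at most 4 called genes of each list per comparison with the largest log2 fold change, and the 3 genes most like each member. Son, Matr3, Dlk1 and other list genes were chosen within that rule where called, and some genes of the lists are not reported here by name. Doublets were kept in the main analysis: Scrublet in scanpy 1.11.5 marked 0, 0, 4 and 0 nuclei with its own threshold and so had not worked, and an alternative removed the 850, 2860, 39 and 482 nuclei with the highest scores (0.8% per 1000 nuclei). On simulated counts, 95.5% of genes changed by 2 log2 units were called in the whole-library treatment comparison of 16548 genes and 8.81% of those changed by 1, while astrocytes against neurons gave 100% and 82%. The simulation gave all genes the same assumed dispersion and no shift of whole libraries. It changed only genes above a minimum expected count. These shares are therefore not the power in these data. Same-numbered libraries did not deviate together (r = -0.28 over 15201 genes), and the labels tie the numbers to nothing shared.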

Additional observations from a re-analysis of the deposited data

Results flagged for a closer look

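The treatment difference of Neat1 in oligodendrocytes exceeded that in neurons by 0.97 log2 units (SE 0.23, adjusted p = 0.0464 by edgeR's quasi-likelihood test in a fit with class, treatment and library), and was singled out because the difference between the classes was itself tested. DOCA-salt oligodendrocytes had 1389 and 931 CPM of Neat1 and Sham oligodendrocytes 497 and 810 CPM, so the groups did not overlap. The call was past the threshold in 2 of 9 alternatives, with values from -0.68 to 1.63. Among oligodendrocytes of 4000 to 8000 UMIs the order of the groups was the reverse. Groups of 2 libraries are too small for a test of single outlying libraries, and none was made.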

How the results depend on the processing

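Of 49 class differences 41 were called, and alternatives called 38 (RLE size factors), 43 (no filter on low counts), 39 (DESeq2), 40 (members left out of the scaling) and 41 (doublets removed), with 36 of 38 under the gate on thinned counts and 31 of 32 under the stricter gate, in the classes that kept enough nuclei. Leaving out 1 library in turn gave 29 to 41, over 5 to 7 classes, and the UMI ranges gave 25, 26 and 22 against 32 in the same 5 classes. In the first of these ranges Rmst was not tested. Libraries with too few nuclei of a class dropped out, so the ranges did not hold the same libraries. The Rmst difference of oligodendrocyte precursors turned to 0.021 among nuclei of 4000 to 8000 UMIs. For treatment over whole libraries, leaving out 1 library gave 0 to 2 called members, with 2 without DOCA-salt 1, and the genes called rose from 0 to 109 with DESeq2 and 142 without the filter. Within classes, leaving out 1 library gave 0 to 3 members and nuclei of 2000 to 4000 UMIs gave 1 (Mirg in astrocytes, 2.93). At matched UMIs it was 1 without the filter and 0 to 4 over left-out libraries. The single interaction became 0 with RLE size factors and at 1000 to 2000 UMIs, 4 without the filter, 5 at 2000 to 4000 UMIs, 1 at 4000 to 8000 UMIs (Rmst in oligodendrocytes), and 0 to 2 over left-out libraries. For Neat1 in oligodendrocytes it was -0.68 at 4000 to 8000 UMIs. GABAergic against glutamatergic neurons gave 2 without the filter, 0 with DESeq2 and 0 to 1 over left-out libraries. The cause was not tested for any of these. The comparison of neurons by UMI range stayed at 0 members throughout. With the replicate number as a block (the numbers share nothing in the labels), 0 members were called in all 3 treatment comparisons, with 47 genes in oligodendrocytes against 5 without the block and 0 in whole libraries. The crossed replicate block, chosen after seeing the data like the UMI ranges, called 0 members and 58 genes in whole libraries, 1 member within classes and 1 member at matched UMIs. In the simulation, with its assumed dispersion, 8.81% of changes of 1 log2 unit were called between treatments in whole libraries. The power in these data is not known. Oligodendrocyte precursors and microglia held at most 19 UMIs of Neat1 a library.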
